A study of Mus musculus with 9 samples.

Results

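Integrins are the receptors by which muscle cells hold on to the matrix around them, and 8 genes of integrin subunits together with Ilk, integrin-linked kinase, are described here in mouse myoblasts at a low and a high level of glycine. The 9 genes were taken by symbol from the deposited expression table, where they are 9 of 53715 gene rows. They comprise the laminin-binding alpha subunits Itga3, Itga6 and Itga7, the fibronectin-binding Itga5, the vitronectin-binding Itgav, and the beta subunits Itgb1, Itgb3 and Itgb5. RNA was sequenced from primary myoblasts, the dividing precursors that fuse into muscle fibres, at passage 1. Every library came from the mdx strain C57BL/10ScSn-Dmdmdx/J, whose dystrophin gene is mutated, so both groups lack full-length dystrophin and no unmutated strain was compared. The groups were cells given 0.2 mM glycine (n = 3 libraries) and cells given 0.8 mM glycine (n = 6 libraries). Nothing in the labels states that libraries of a group came from separate cultures or animals, and p-values therefore measure the spread between libraries, which may be technical. The labels number the libraries as a series for each glycine level, so a batch that followed the series and glycine cannot be told apart.

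An integrin is a pair of an alpha and a beta subunit, each crossing the membrane once. The alpha subunit largely sets which matrix protein is bound, and the short tail of the beta subunit binds talin and kindlin, which link it to actin. In muscle the alpha 7 beta 1 integrin binds laminin of the basement membrane beside the dystroglycan complex that dystrophin anchors. ILK sits at the beta tail with the adaptors PINCH and parvin and, despite its name, serves as a scaffold.

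Expression is given as TPM, a length-corrected transcript abundance and the authors' unit, which divides by gene length and scales every library to the same sum. Levels of different genes can therefore be set side by side within a library. How many reads stand behind a value cannot be recovered from TPM, so the depth is unknown. Across all genes, 10049 had at least 1 TPM in at least 3 libraries and were tested with limma on log2(TPM + 1). Of these, 26.6% had a Benjamini-Hochberg adjusted p below 0.05, counted here as passing, with 16.7% that rose and 9.81% that fell from 0.2 to 0.8 mM, and the median difference over all genes was 0.06. These were 1683 and 986 genes, and with quantile normalization 1324 rose and 1335 fell. Log2 fold changes are of TPM + 1, with 0.2 mM subtracted from 0.8 mM; for scarce genes this scale makes a change look smaller than the ratio of TPM does. The myoblast label was checked against 8 marker genes. Myog, myogenin, was the most abundant of them in both groups, at 247 ± 17 and 523 ± 41 TPM (SD) at 0.2 and 0.8 mM. Des, desmin, was at 104 ± 13 and 356 ± 30 TPM (SD) and Myod1 at 35.7 ± 4.5 and 69.3 ± 5.7 TPM at 0.2 and 0.8 mM, while the stem cell marker Pax7 was at 0.712 ± 0.176 and 1.20 ± 0.31 TPM. Markers of other cells were also present, and some were above Myog in both groups. The fibroblast marker Dcn was at 1878 ± 184 and 1689 ± 209 TPM, and the leukocyte marker Fcer1g at 949 ± 39 and 888 ± 36 TPM. Values of the markers of other cells are given after those of the integrins.

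Of the 9 genes, 6 rose (Itga5, Itga7, Itgb1, Itgb3, Itgb5 and Ilk), 0 fell, 2 were tested and did not pass (Itga6 and Itgav), and Itga3 stayed under the filter. Over all genes tested, 16.7% rose and 9.81% fell. The groups' libraries did not overlap for the same 6 genes, all higher at 0.8 mM, where 17.6% of all tested genes did so in that direction and 28.2% in either. Itgb3 reached 1 TPM only in the 0.8 mM libraries and so entered the test through the group where it was high. The largest difference was that of Itgb3, at 0.99, and the smallest that of Itgav, at 0.25.

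**Figure D1:**
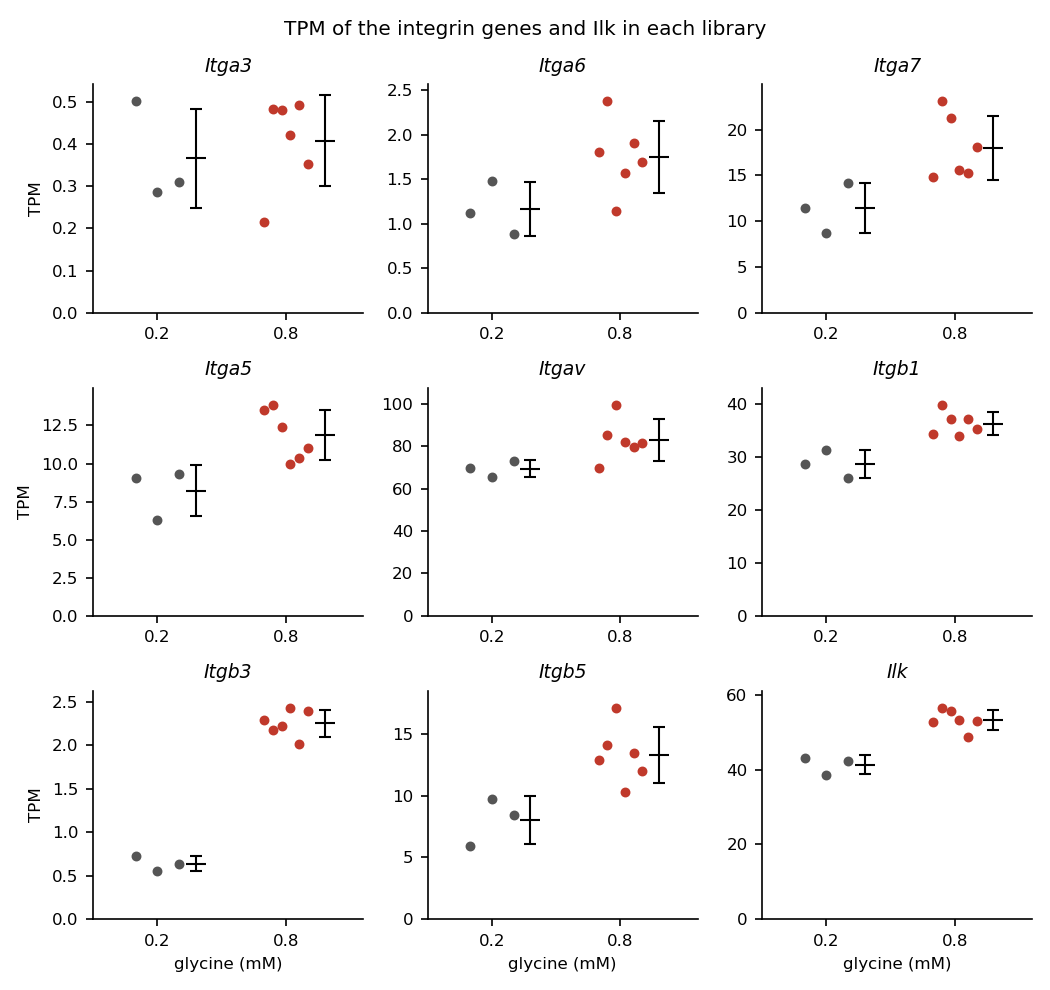
Points are single libraries, 3 grey ones at 0.2 mM and 6 red ones at 0.8 mM glycine, with 1 gene per panel, TPM on a vertical axis from 0, and black bars for mean and SD. Grey and red points do not overlap for Itga7, Itga5, Itgb1, Itgb3, Itgb5 and Ilk, and do overlap for Itga3, Itga6 and Itgav.

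Because several of these genes rose together, the DNA just before their start sites is shown for Itga5, Itgb1 and Itgb5, which rose, and for Itgav, the most abundant of the 9, which did not pass. The windows are the 150 bases before the RefSeq start on GRCm38.p6, written 5′ to 3′ on the gene's strand and free of annotated exons. Capitals mark any match, on either strand, to the GC box GGGCGG, the E-boxes CAGCTG and CACCTG, the AP-1 motif TGANTCA or the TATA motif TATAAA, and no matches overlap.
Itga5, chr15:103366792-103366941, minus strand: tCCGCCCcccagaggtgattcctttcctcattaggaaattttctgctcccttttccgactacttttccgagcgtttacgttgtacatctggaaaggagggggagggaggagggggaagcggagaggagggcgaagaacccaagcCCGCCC
Itgb1, chr8:128685504-128685653, plus strand: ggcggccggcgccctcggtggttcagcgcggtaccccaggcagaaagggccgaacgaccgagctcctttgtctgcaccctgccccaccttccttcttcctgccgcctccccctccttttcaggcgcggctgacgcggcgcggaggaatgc
Itgb5, chr16:33829515-33829664, plus strand: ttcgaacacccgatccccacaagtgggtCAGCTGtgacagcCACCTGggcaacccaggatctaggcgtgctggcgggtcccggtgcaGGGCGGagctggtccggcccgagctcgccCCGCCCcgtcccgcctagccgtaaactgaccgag
Itgav, chr2:83724247-83724396, plus strand: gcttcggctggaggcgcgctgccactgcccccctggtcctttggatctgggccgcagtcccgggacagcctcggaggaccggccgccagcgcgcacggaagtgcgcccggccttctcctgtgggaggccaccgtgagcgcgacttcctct

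The Itga5 window held 2 GC boxes, and the Itgb5 window held 2 GC boxes, 1 CAGCTG and 1 CACCTG, whereas no searched motif occurred in those of Itgb1 and Itgav. Among 32843 promoter windows of the same length, 28.6% held a GC box, 8.39% CAGCTG, 10.6% CACCTG, 4.24% the AP-1 motif and 7.58% the TATA motif. G and C made up 72.7% of the Itgav window, 70.0% of Itgb1, 69.3% of Itgb5 and 56.7% of Itga5, against a median of 54.0% over all windows. The motifs are letter matches, and the RNA data hold no measure of binding. Promoter sequence was matched for 6 of the 9 genes, not for Itga6, Itga7 and Itgb3. Both windows of Ilk lie within annotated exons, and 1 of the 2 windows of Itga3 does for 34 bases, so neither gene is shown.

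Itga7 encodes the alpha 7 subunit, the main laminin receptor subunit of skeletal muscle, and lies on chromosome 10 (128933818 to 128958282, plus strand, ENSMUSG00000025348.9 in GENCODE M21 on GRCm38). At 0.2 mM its TPM was 11.4, 8.67 and 14.1 in replicates 1, 2 and 3. At 0.8 mM the lowest library was at 14.8, the median was 16.8 and the highest was 23.1. The highest library at 0.2 mM came close to the lowest at 0.8 mM without reaching it. The means were 11.4 ± 2.7 and 18.0 ± 3.5 TPM (SD), and the log2 fold change was 0.62 with an SE of 0.17 (limma adjusted p = 0.0231). The call was lost without 0.2 mM replicate 1 (adjusted p = 0.0612), without 0.2 mM replicate 2 (0.114) and with no filter on low values (0.0618). It was also lost with the library number as a block over libraries 1 to 3 of each group (0.0652). The adjusted p ranged from 0.0135 to 0.114 across all alternatives.

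The other laminin-binding alpha subunits were scarce. Itga6, whose product pairs with beta 1 in satellite cells and many other cells, lies on chromosome 2 (71745616 to 71858416, plus strand). It was at 1.12, 1.48 and 0.884 TPM in the 0.2 mM libraries and between 1.15 and 2.37 at 0.8 mM, with a median of 1.75. The groups overlapped, and the difference of 0.34 did not pass, with a 95% interval from -0.02 to 0.71 (limma adjusted p = 0.157). Itga3, a laminin receptor subunit abundant in epithelia, lies on chromosome 11 (95044474 to 95076801, minus strand) and was under 1 TPM in all 9 libraries. Its levels were 0.502, 0.286 and 0.311 TPM at 0.2 mM and 0.216 to 0.494 TPM at 0.8 mM, so it was not tested. The summed TPM of the 3 laminin-binding subunits was 10.4 to 15.3 at 0.2 mM and 16.8 to 26.0 at 0.8 mM, and nearly all of it was Itga7.

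Itga5 encodes the subunit that forms the classical fibronectin receptor with beta 1, and lies on chromosome 15 (103344286 to 103366763, minus strand). The 0.2 mM libraries were at 9.06, 6.27 and 9.33 TPM, with replicate 2 low. At 0.8 mM the lowest was at 9.995, the median 11.7 and the highest 13.9, and the groups did not overlap. The log2 fold change was 0.49 ± 0.15 (SE, limma adjusted p = 0.0306), from 8.22 ± 1.69 to 11.9 ± 1.6 TPM (SD). This was the call of the 6 that failed most often: it was lost without 0.2 mM replicate 2 (difference 0.33, adjusted p = 0.145), without 0.8 mM replicates 1, 2 or 3 (0.0542, 0.0539 and 0.0545), with no filter (0.0686) and with quantile normalization (0.0624). With the library number as a block over libraries 1 to 3 of each group it was lost as well (0.0532). Its adjusted p ranged from 0.0194 to 0.145 over all alternatives.

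Itgav encodes the alpha V subunit, which binds vitronectin, osteopontin and other ligands carrying the RGD motif, and lies on chromosome 2 (83724397 to 83806916, plus strand). It was the most abundant of the 9, at 69.8, 65.4 and 73.3 TPM at 0.2 mM. At 0.8 mM the lowest library, replicate 1, was at 69.6, the median was 81.7 and replicate 3 was highest at 99.7. The lowest 0.8 mM library thus lay inside the range of the 0.2 mM group. The difference of 0.25 (95% interval 0.03 to 0.46) did not pass (limma adjusted p = 0.0883), and it did pass without 0.8 mM replicate 1, at 0.29 (0.0291). An antisense transcript gene, Gm13684, covers 634 of its 10744 exon bases and was not analysed here.

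Itgb1 encodes the beta 1 subunit, the partner shared by alpha 3, 5, 6, 7 and V, and lies on chromosome 8 (128685654 to 128733200, plus strand). Its TPM was 28.6, 31.2 and 26.0 at 0.2 mM. At 0.8 mM the libraries ran from 33.8 through a median of 36.2 to 39.8, all above the other group. The rise from 28.6 ± 2.6 to 36.2 ± 2.2 TPM (SD) gave a lower log2 fold change than those of the other beta subunits, a difference that was not tested, at 0.33 with an SE of 0.08 (limma adjusted p = 0.0111). The call was lost without 0.2 mM replicate 3 (0.0551) and with quantile normalization (0.0543). It was also lost with the library number as a block over libraries 1 to 3 of each group (0.0596). The adjusted p ranged from 0.00602 to 0.0596 across all alternatives.

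Itgb3 and Itgb5 encode beta 3 and beta 5, which pair with alpha V as vitronectin receptors. Itgb3 lies on chromosome 11 (104608000 to 104670476, plus strand) and was at 0.727, 0.553 and 0.637 TPM at 0.2 mM. At 0.8 mM the lowest library was at 2.01, the median 2.25 and the highest 2.43, so the groups were far apart at a low level. The ratio of mean TPM was 3.53, from 0.639 ± 0.087 to 2.26 ± 0.15 (SD), and the log2 fold change of (TPM + 1) was 0.99 ± 0.12 (SE, limma adjusted p = 0.000103). It passed in each fit that left out a library, and a filter at a mean of 5 TPM removed it.

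Itgb5 lies on chromosome 16 (33829665 to 33949338, plus strand). Its TPM was 5.91, 9.70 and 8.44 at 0.2 mM, with replicate 1 low. The 0.8 mM libraries ran from 10.3 through a median of 13.2 to 17.1, with replicate 3 highest and no overlap. The rise from 8.01 ± 1.93 to 13.3 ± 2.3 TPM (SD) gave a log2 fold change of 0.68 with an SE of 0.17 (limma adjusted p = 0.0116), which missed the threshold without 0.2 mM replicate 1 (difference 0.50, adjusted p = 0.0598).

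Ilk lies on chromosome 7 (105736592 to 105742925, plus strand). It was at 43.2, 38.5 and 42.3 TPM at 0.2 mM, and at 0.8 mM the lowest library was at 48.8, the median 53.1 and the highest 56.5. All 6 libraries at 0.8 mM were above all 3 at 0.2 mM. The mean rose from 41.4 ± 2.5 to 53.4 ± 2.7 TPM (SD), by 0.36 with an SE of 0.07 on the log2 scale (limma adjusted p = 0.00277), and it passed in every alternative that was run. Of its 2744 exon bases, 2106 are shared with Taf10 and 355 with Rrp8, both on the opposite strand, and the use of strand is not given in the sources used here. Reads of Ilk and of Taf10 may therefore not have been told apart, and Taf10, a subunit of a general transcription factor, was at 41.1 ± 1.2 and 48.6 ± 4.5 TPM (SD), a difference of 0.23 that did not pass (limma adjusted p = 0.0642).

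**Figure D2:**
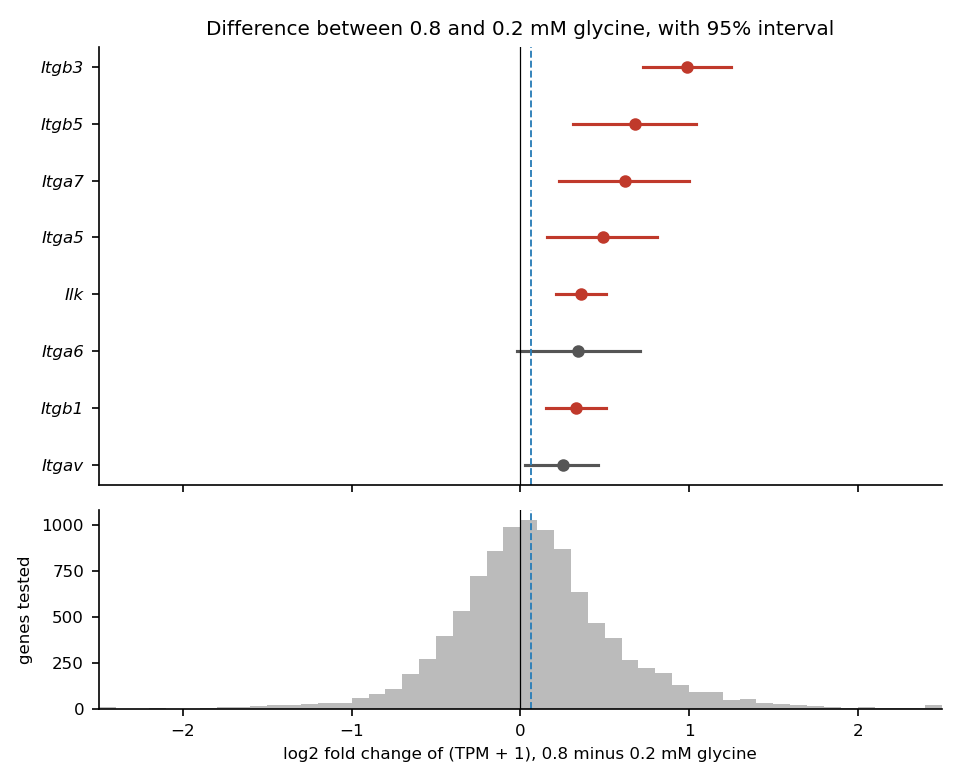
The upper panel gives the log2 fold change of (TPM + 1), 0.8 minus 0.2 mM glycine, of the 8 tested genes with its 95% interval, red where the limma adjusted p was under 0.05; the lower panel gives the number of genes per bin over all 10049 tested, with values beyond the axis drawn in the end bins. The dashed line is the median of all genes, 0.06, and the 8 genes run from 0.25 for Itgav to 0.99 for Itgb3.

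Set in order at 0.2 mM, the mean levels ran from Itgav through Ilk, Itgb1, Itga7, Itga5, Itgb5, Itga6 and Itgb3 to Itga3. The ranges of neighbours overlapped for Itga7 with Itga5, and for Itga5 with Itgb5. At 0.8 mM Itgb5 stood above Itga5 and Itgb3 above Itga6, again with overlapping ranges, and those of Itga7 and Itgb5 also overlapped. Itgav, Ilk and Itgb1 held the first places in that order in both groups with no overlap between them.

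The make-up of the alpha subunits was dominated by Itgav, which held 74.8 to 79.6% of the summed alpha TPM at 0.2 mM and 68.2 to 74.8% at 0.8 mM. Itga7 held 10.6 to 14.4% and 14.1 to 18.5%, and Itga5 7.64 to 9.87% and 9.12 to 13.5%. The ranges of the 2 groups overlapped for each of these 3 shares, though barely for Itgav. Among the beta subunits Itgb1 held 74.1 to 81.2% of the sum at 0.2 mM and 65.8 to 72.6% at 0.8 mM, which did not overlap. The share of Itgb3 was 1.33 to 2.06% and 3.83 to 5.22%, also without overlap, and that of Itgb5 was 16.8 to 24.1% and 22.2 to 30.3%, with overlap. The summed TPM of the alpha genes was 90.6 ± 8.0 and 115 ± 13 (SD), and that of the beta genes 37.3 ± 3.6 and 51.8 ± 3.9, so alpha RNA exceeded beta RNA at a ratio of 2.46 ± 0.43 and 2.22 ± 0.16. The ratio of Ilk to Itgb1 was 1.46 ± 0.20 and 1.48 ± 0.09. Shares and ratios over these genes are a description without a test, since the genes were picked with results of these data known.

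**Figure D3:**
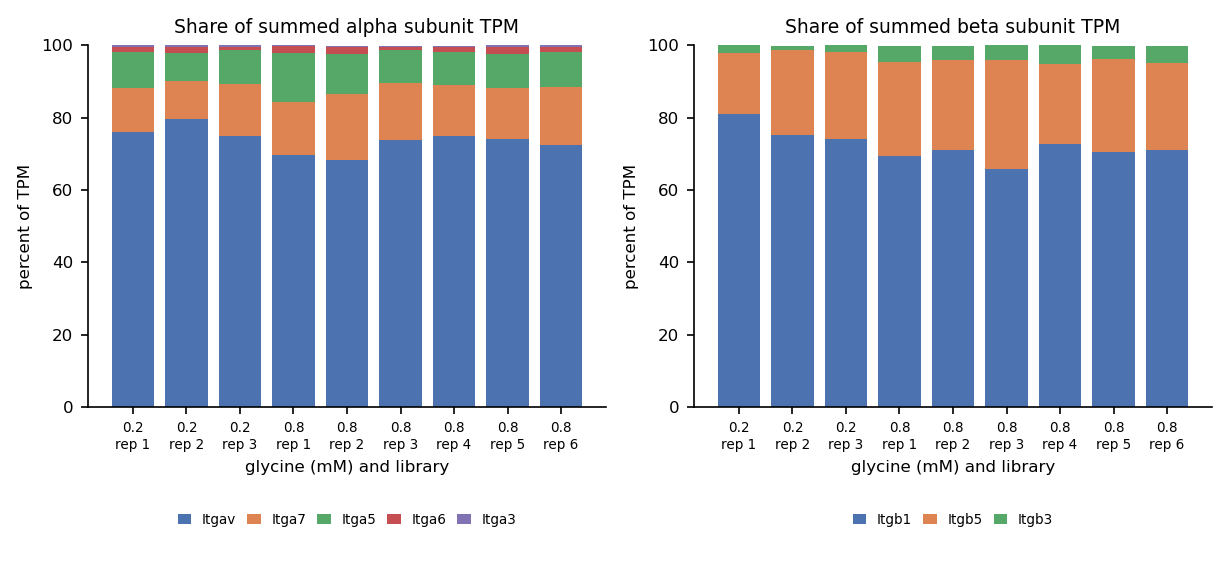
Stacked bars give, for each of the 9 libraries, the percent of summed TPM held by each of the 5 alpha (left) and 3 beta subunit genes (right), with the glycine level in mM and the replicate under each bar. Itgav and Itgb1 hold most of their sums in every library, and the Itgb3 share is 1.33 to 2.06% at 0.2 mM and 3.83 to 5.22% at 0.8 mM.

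The genes whose levels ran most like those of Itga7 and Itgb1 were sought by Pearson correlation of log2(TPM + 1) over the 9 libraries, among 4369 other genes with a mean of at least 5 TPM. For Itga7 they were Fxyd1 (r = 0.971), Ccdc127 (0.964), Slc39a7 (0.962), Psmc3 (0.958) and Arhgdia (0.957). For Itgb1 they were Cdc42 (0.979), Eif4e2 (0.963), Pclaf (0.960), Sep15 (0.956) and Srp9 (0.955). With the group means removed, r stayed between 0.90 and 0.94 for the genes named for Itga7 and between 0.79 and 0.92 for those named for Itgb1. The points share their libraries and the scaling of TPM, and the highest of so many correlations are high by selection.

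Of 18 other integrin subunits, 14 stayed under the filter, among them the collagen-binding Itga1, at 0.321 ± 0.072 and 0.564 ± 0.074 TPM (SD), and Itga4 and Itga9, which bind the receptor VCAM-1. Of the 4 that were tested, 1 rose, 1 fell and 2 did not pass, where 16.7% of all genes tested rose and 9.81% fell. The 1 that rose was Itgam, of the leukocyte integrin Mac-1, which reached 1 TPM only in the 0.8 mM libraries, from 0.688 ± 0.080 to 1.503 ± 0.196 TPM (log2 fold change 0.57, limma adjusted p = 0.00718). The 1 that fell was Itgb7, a lymphocyte and mast cell subunit, from 6.03 ± 2.84 to 1.76 ± 0.75 TPM (-1.32, limma adjusted p = 0.00506). Itgb2, the beta subunit of leukocyte integrins, was tested and missed the threshold, at 8.97 ± 0.75 and 8.78 ± 2.16 TPM.

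Of 33 genes tested among 36 of the link from integrins to actin, the adaptors and focal adhesion genes, 13 moved up and 1 moved down past the threshold, 19 missed it, and the median was 0.27. Over all genes tested, 16.7% rose and 9.81% fell, with a median of 0.06. By the rule for named genes the first of these were Itgb1bp2, Pdlim7, Nexn and Csrp1. Itgb1bp2 encodes melusin, a muscle protein that binds the beta 1 tail, and rose from 5.26, 6.49 and 6.69 TPM at 0.2 mM to a range of 24.4 to 30.0 at 0.8 mM, with a median of 27.9. Its log2 fold change of 2.00, with an SE of 0.10 (limma adjusted p = 1.8e-07), was the largest of any adaptor tested. Nexn, the actin-binding nexilin, rose by 1.45 and Pdlim7, a cytoskeletal PDZ and LIM protein, by 1.18, while Csrp1, a LIM protein that binds alpha-actinin and zyxin, rose by 0.65.

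Several genes outside that rule are given for their place in the link from the beta tail to actin or beside ILK. They were chosen after their values were seen. Tln1, talin 1, which activates integrins, rose from 11.8 ± 1.1 to 18.7 ± 1.1 TPM (0.62, limma adjusted p = 0.000346). Fermt2, kindlin-2, its partner at the beta tail, rose from 13.2 ± 1.8 to 24.9 ± 3.4 TPM (0.87, limma adjusted p = 0.000607), and Vcl, vinculin, from 3.31 ± 0.20 to 6.09 ± 1.01 TPM (0.71, limma adjusted p = 0.00256). Fermt3, kindlin-3, also rose, by 0.46 (limma adjusted p = 0.0271). Tln2, talin 2, differed by 0.63 (95% interval -0.01 to 1.27) and Flna, filamin A, by 0.02 (-0.26 to 0.30), and neither passed. No tested gene of PINCH or parvin passed. Lims1, PINCH1, differed by 0.27 (95% interval -0.07 to 0.60) and Parva, alpha-parvin, by 0.07 (-0.15 to 0.28). The parvin genes Parvb and Parvg differed by 0.42 (-0.16 to 0.99) and -0.22 (-1.12 to 0.68), and Lims2, PINCH2, stayed under the filter. Rsu1, which binds PINCH1, differed by 0.08 (-0.19 to 0.35) and did not pass. The interval of Ilk itself was 0.21 to 0.51, and the difference between Ilk and these genes was not tested. The 1 adaptor that fell was Itgb1bp1, ICAP-1, which binds the beta 1 tail and holds the integrin inactive, from 10.9 ± 1.3 to 7.81 ± 0.54 TPM (-0.43, limma adjusted p = 0.00929, and 0.0513 without 0.2 mM replicate 3). With quantile normalization 8 adaptors rose.

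Among matrix ligands of integrins, 24 of the 29 in the table were tested; 7 of them rose and 2 fell, 15 missed the threshold, and the median was 0.10, beside 16.7% and 9.81% of all genes and their median of 0.06. The first by rule were Postn, periostin, which rose from 28.8 ± 3.7 to 57.3 ± 4.5 TPM, Tnc, tenascin C, from 29.9 ± 4.7 to 81.3 ± 14.7 TPM, and Thbs1, thrombospondin 1, from 4.51 ± 0.29 to 11.3 ± 1.7 TPM. Thbs2, thrombospondin 2, fell from 9.01 ± 0.45 to 4.64 ± 0.42 TPM (log2 fold change -0.83, limma adjusted p = 0.000151). The other that fell was Fn1, fibronectin, the ligand of the receptor that Itga5 helps to form, from 14.2 ± 1.8 to 8.59 ± 1.96 TPM (-0.68, limma adjusted p = 0.0145). Fn1 moved against Itga5 in direction, and missed the threshold without 0.2 mM replicate 3 (0.0687). With median-ratio scaling or with quantile normalization 5 ligands fell.

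Ligands of the laminin and vitronectin receptors were followed beside their receptor subunits, again chosen after their values were seen. The laminin chains Lama2, Lama4, Lama5, Lamb1, Lamb2 and Lamc1 were tested and none passed, with Lama2, the chain of muscle laminin, at 1.85 ± 1.45 and 2.59 ± 1.19 TPM. The 95% interval of the Lama2 difference, -0.28 to 1.07, was wide. Spp1, osteopontin, a ligand of alpha V integrins, rose from 293 ± 18 to 366 ± 30 TPM (0.32, limma adjusted p = 0.00865, and over 0.05 with quantile normalization). Vtn, vitronectin, stayed under the filter at 0.784 ± 0.135 and 0.855 ± 0.317 TPM.

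All 16 genes of membrane proteins that associate with integrins were tested; 7 rose and 3 fell, 6 did not pass, and the median was 0.15, where 16.7% of all genes tested rose and 9.81% fell. Cd81, a tetraspanin, rose from 115 ± 10 to 220 ± 10 TPM, Sdc1, the syndecan 1 co-receptor, from 13.6 ± 2.6 to 30.7 ± 2.8 TPM, and Dag1, dystroglycan, the other laminin receptor of muscle, from 7.997 ± 0.786 to 19.4 ± 1.8 TPM. Slc3a2, whose product binds beta subunit tails as well as carrying amino acid transporters, fell from 188 ± 13 to 74.4 ± 3.3 TPM. The others that fell, outside the rule, were Cd36, by 1.40, and Cd47, a partner of alpha V beta 3, by 0.43. Cd151, the tetraspanin most closely bound to laminin-binding integrins, missed the threshold, at 19.8 ± 0.5 and 20.0 ± 2.6 TPM.

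**Figure D4:**
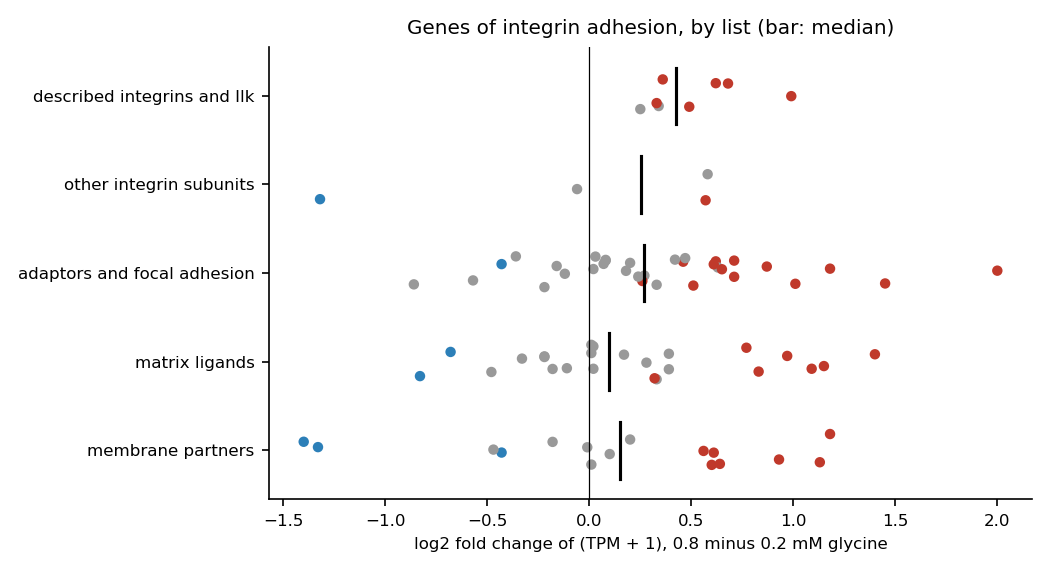
Each point is a tested gene of 1 of 5 lists, placed by its log2 fold change of (TPM + 1), 0.8 minus 0.2 mM glycine, and coloured red where it rose, blue where it fell and grey where it did not pass; the vertical jitter has no meaning and black bars are medians. The adaptor list reaches furthest to the right with Itgb1bp2 at 2.00, and the membrane partners reach from -1.40 to 1.18.

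Markers of other cell types moved between the groups as well, and several of these cells also carry alpha V, beta 1 and beta 5. In bulk RNA, fewer cells of a type and less RNA per cell cannot be told apart. The counts below stand beside 16.7% of all tested genes that rose and 9.81% that fell. Of 8 myoblast markers 6 rose and 0 fell, and their summed TPM ranged from 424 to 496 at 0.2 mM and from 922 to 1139.6 at 0.8 mM. Of 8 fibroblast markers 6 rose and 0 fell, with sums of 2252 to 2631 and 2637 to 3202 TPM, led by Dcn in both groups. Dcn itself, at 1878 ± 184 and 1689 ± 209 TPM, did not pass, nor did Thy1. Ly6a rose from 313 ± 20 to 901 ± 37 TPM. Cd248 rose from 0.289 ± 0.321 to 5.61 ± 2.13 TPM and reached 1 TPM only at 0.8 mM. Leukocyte markers summed to 1855 to 2026 and 2013 to 2466 TPM, and of 10 genes 3 rose and 1 fell. Lyz2 rose from 588 ± 31 to 1013 ± 153 TPM, and Tyrobp and Itgam also rose. Cd68 fell from 182 ± 14 to 57.6 ± 2.4 TPM, and Fcer1g, at 949 ± 39 and 888 ± 36 TPM, did not pass. The smooth muscle and pericyte list summed to 385 to 432 and 1184 to 1413 TPM, nearly all of it Acta2, an actin that myoblasts also make. Of its 6 genes 2 were tested and both rose, Acta2 and the pericyte marker Cspg4, which went from 0.389 ± 0.063 to 1.66 ± 0.34 TPM (0.93, limma adjusted p = 0.000903) and reached 1 TPM only at 0.8 mM. Under the filter, the pericyte markers Rgs5, at 0.0849 ± 0.0594 and 0.306 ± 0.078 TPM, and Notch3, at 0.103 ± 0.028 and 0.448 ± 0.097 TPM, were higher at 0.8 mM without overlap, while the smooth muscle markers Myh11 and Cnn1 were at most at 0.178 TPM in any library. The 6 endothelial markers summed to 4.33 to 4.79 and 9.33 to 12.8 TPM, and 3 of 3 tested rose. Of these, Pecam1 and Cdh5 reached 1 TPM only at 0.8 mM and so entered the test through the group where they were high. Emcn was above 1 TPM in every library, at 2.30 ± 0.35 and 5.24 ± 0.75 TPM. Kdr, Tek and Tie1 stayed under the filter, at most at 0.734 TPM in any library. Their means were higher at 0.8 mM, with overlapping groups: 0.163 and 0.321 TPM for Kdr, 0.143 and 0.216 for Tek, and 0.268 and 0.550 for Tie1. The part of these cells in the rises of the integrin genes was not tested.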

How the data were processed

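The submitters' processing notes name HISAT2 2.0.5, a read aligner, StringTie 1.3.3, a transcript quantifier, DESeq2 and the mm10 build, without their roles. Per the labels' protocols, Trizol was used to extract the RNA, and the library kit was TruSeq RNA. The authors deposited 1 table of TPM, and its columns were matched to samples by library number. Positions came from GENCODE M21 on GRCm38, the assembly mm10 denotes, and promoter sequence from RefSeq.

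Values were tested with limma 3.58.1 in R 4.3.3 (lmFit, and eBayes with a trend) on log2(TPM + 1), two-sided, over all 9 libraries and 10049 genes with at least 1 TPM in at least 3 libraries. P-values were adjusted over all genes tested. In 10 simulations with 200 of 10049 genes changed, 36.3% of 1.5-fold, 71.0% of 2-fold and 96.4% of 4-fold changes were recovered and 0.0599% of unchanged genes were called. The folds were set on the scale of TPM + 1, so for scarce genes they are not ratios of TPM. A far smaller share of genes was changed than the 26.6% called in the data, so recovery in the data may differ.

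The members and gene lists were chosen with earlier results of these data known, and lists were counted, not tested. A further list of marker genes was left out and is not reported here. Named were the 9 members, up to 4 genes of each list with the smallest p among those that passed, and the 5 genes most correlated with Itga7 and with Itgb1. Other genes named were chosen after their values were seen. Alternatives were pseudocounts of 0.1 and 0.5, other filters, scalings and variance models, each library left out, and the library number as a block. Figures used matplotlib 3.10.9.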

Additional observations from a re-analysis of the deposited data

How the results depend on the processing

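All 8 tested genes kept a difference above 0 in every alternative that tested them (Itga6 and Itgb3 were not tested at a mean of 5 TPM), and the 6 calls held together under either other pseudocount, median-ratio scaling, removal of ribosomal RNA genes and both other variance models. Leaving out each library in turn, 4 to 6 of the 9 genes rose and 0 fell, 9 to 14 adaptors rose and 0 to 2 fell, 6 to 7 ligands rose and 2 to 3 fell, and 1304 to 1626 of all genes rose and 720 to 968 fell. Itga3, tested only with no filter, differed by 0.04. A filter at a mean of 5 TPM, which tests fewer genes, left 0 other subunits that rose, 0 that fell and 4 ligands that rose. With median-ratio scaling or quantile normalization 5 ligands fell, and with quantile normalization 8 adaptors rose and 5 membrane partners fell; the cause was not tested. Median-ratio scaling moved the median over all genes from 0.062 to 0.008 and quantile normalization to -0.022.

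Libraries 1 to 3 of each group share numbers, but the correlations of the deviations of same-numbered libraries, 0.038, 0.002 and 0.107, do not show that the numbers pair them. With the library number as a block over these 6 libraries, 3 of the 9 genes rose (Ilk, Itgb3 and Itgb5), 0 other subunits rose, 0 adaptors fell and 625 of all genes fell, where the same 6 libraries without the block called 6 of the 9 genes and 1 ligand that fell. Not every library correlated best with its own number: 0.2 mM replicate 2 did so with 0.8 mM replicate 1, at 0.061. Depth is unknown, which limits what can be said of genes near 1 TPM such as Itgb3 and Itga6.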

Other observations

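Itgb6, the epithelial partner of alpha V, was at 6.37 TPM in 0.8 mM replicate 4 and between 0.490 and 1.07 TPM in the other 8 libraries, and stayed under the filter. Itga2b, the platelet subunit that pairs with beta 3, was at 0.108 to 0.179 TPM at 0.2 mM; at 0.8 mM it was listed at 0 in replicate 4, at 0.0486 TPM in replicate 6 and at 0.854 to 1.44 TPM in the other 4 libraries. The choice of these genes was made from their values.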
